A study of Homo sapiens with 14 samples.

Results

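TRIM37 and 7 genes of centriole duplication and the pericentriolar material (PLK4, STIL, CEP152, CEP192, CEP63, CDK5RAP2 and PCNT) were followed through RNA-Seq splice measurements of HEK293T cells, a human line of embryonic kidney origin. Members were all splice events that the deposited splice table assigns to these gene symbols with a mean of at least 10 junction reads over the SF3B1-WT and SF3B1-MT groups. There were 188 such events, of 198 listed for the 8 genes and 114349 listed in all. Both groups are isogenic. WT cells carry SF3B1 K700K and MT cells express SF3B1 K700E from the endogenous locus, with 3 libraries each, and no age, treatment or time distinguishes them. The sources used here do not say how many clones or cultures the libraries came from, so all p-values measure the spread between these libraries, which may be technical. The table holds splice levels only, so neither the SF3B1 allele nor markers of the cell line could be checked, and a change in the amount of a transcript was not measured.

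Centrioles are copied once in each cell cycle. PLK4, a kinase, starts a new centriole after CEP192 and CEP152 recruit it to the parent centriole, where CEP63 sits with CEP152 and where STIL, a partner and substrate of PLK4, helps to build the cartwheel. CDK5RAP2 and PCNT organize the pericentriolar material around the centriole, from which spindle microtubules grow, and TRIM37, a ubiquitin ligase, limits the assembly of such material away from centrioles. SF3B1 is the part of the U2 snRNP that holds the branch site during 3′ splice site choice, and its K700E form is known for the use of cryptic 3′ splice sites a short way upstream of the usual ones. The comparison asks which splice choices of these genes differed between SF3B1-MT and SF3B1-WT cells.

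Of the 8 genes, TRIM37 held the event that set the genotypes apart most clearly, an alternative 3′ splice site that adds 27 bases in front of exon 23. Its upstream site is printed here because the largest difference between WT and MT among all 171 events tested in these genes lies there. The stretch covers chr17:59001703-59001781 (GRCh38, minus strand, printed in the direction of the transcript), with the end of intron 22 in lower case, the 27 added bases in capitals and the first 12 bases of exon 23 in lower case.

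TRIM37 intron 22 to exon 23: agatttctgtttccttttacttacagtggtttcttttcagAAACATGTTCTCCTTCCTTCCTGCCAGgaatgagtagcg

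The added segment, chr17:59001715-59001741, lies in intron 22 of the canonical transcript TRIM37-201, which has 24 exons, and joins onto exon 23 (chr17:59001598-59001714, 117 bases, all coding). Intron 22 spans 10613 bases and follows exon 22 (chr17:59012328-59012446). In the GENCODE release 44 annotation, 1 of 14 TRIM37 transcripts, TRIM37-213, uses the upstream site, and 3 use the downstream site. The 27 bases keep the reading frame, since they make up 9 codons, and 0 stop codons lie in frame in the added segment and exon 23. Both sites end in AG, printed in capitals in the lines for each site, which give 20 intron bases and 3 exon bases. Of the 18 intron bases before that AG, 13 were pyrimidines upstream and 17 downstream.

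TRIM37 upstream site: ttacagtggtttcttttcAGaaa
TRIM37 downstream site: ttctccttccttcctgccAGgaa

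The study's own qPCR primers for TRIM37 mark the same pair of forms. Both forward primers matched the antisense strand of the joined exons, and capitals show the bases that pair with the sequence after exon 22. The primer for the WT isoform pairs with 15 bases of exon 22 and 9 bases of the short exon 23, and the primer for the mutant isoform pairs with 10 bases of exon 22 and 13 bases of the added segment. TRIM37 was one of the transcripts chosen in the study for qPCR by the extent of splicing changes, so its direction here is not independent evidence.

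WT isoform primer: TACTCATTCcttcttcaggggcag
Mutant isoform primer: GGAGAACATGTTTcttcttcagg

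Inclusion levels were compared for this event and all others. The inclusion level is the share of junction reads, corrected for the length of each form, that support the longer form or the form with the exon, and runs from 0 to 1. For the TRIM37 event, the level of the form with the added 27 bases was 0, 0.069 and 0.075 in the WT libraries and 0.275, 0.285 and 0.294 in the MT libraries. All MT libraries lay above all WT libraries, and the lowest MT level was more than 3 times the highest WT level. The mean was 0.048 ± 0.0417 in WT libraries and 0.285 ± 0.0095 in MT libraries (SD, n = 3 each), a difference of 0.237 (95% interval 0.180 to 0.294).

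Reads behind these levels were few. The longer form was supported by 0 of 40, 9 of 103 and 6 of 64 junction reads in the WT libraries. In the MT libraries it was supported by 17 of 52, 25 of 74 and 38 of 109 reads. The 0 of 40 reads of the first WT library allows a share of up to 7.5% of the reads. This limit covers counting error only. Over the 3 libraries of each genotype, 15 of 207 reads in WT and 80 of 235 reads in MT supported the longer form.

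**Figure D1:**
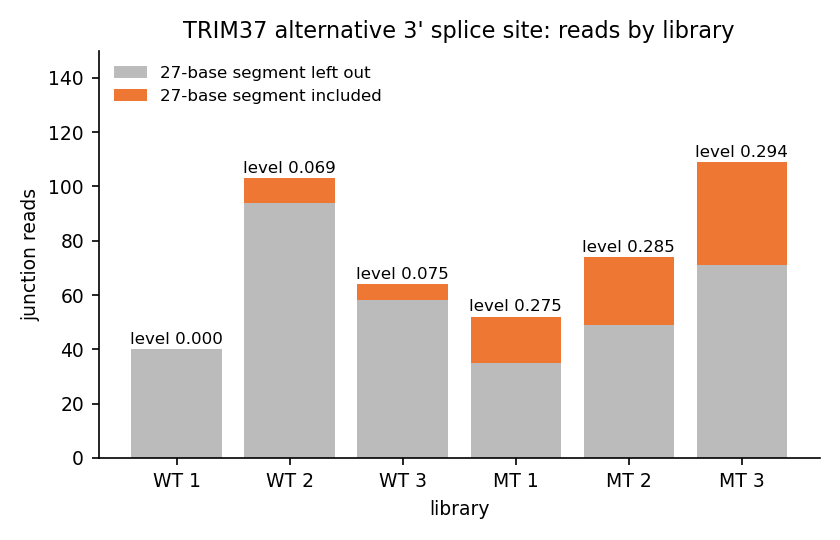
Junction reads (y axis) at the TRIM37 alternative 3′ splice site in each of the 6 libraries (x axis), split into reads that leave out the 27-base segment (grey) and reads that include it (orange), with the inclusion level above each bar. Included reads number from 0 to 9 in the WT libraries and from 17 to 38 in the MT libraries.

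In limma's moderated test, fitted over all 83581 events on arcsine-transformed square roots of the levels, the TRIM37 event had an unadjusted p of 3.92e-05. After Benjamini-Hochberg adjustment over all events the adjusted p was 0.0794, so the event was not called at an adjusted p under 0.05 with a difference above 0.1. In this ranking 40 of the 83581 events had a lower p. The exact two-sided permutation test over libraries gave p = 0.1, the smallest value that 3 against 3 libraries allow.

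Across the 8 genes, limma called 0 of 171 tested events, beside 26 of 83581 over all genes (0.0311%) and 12 of 5351 alternative 3′ splice site events (0.224%). At an unadjusted p under 0.05, 6 of the 171 member events passed, beside 3740 over all genes (4.47%), so the share of low p-values among the members was close to the background. The same fit with a logit, with the untransformed level, without a variance trend, with other read filters or with constant events kept also called 0 member events, and between 2 and 6 passed the unadjusted threshold there. The remaining 17 of the 188 events had the same level in every library and were not tested.

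Differences in the 171 events were small in most. The difference was under 0.05 in absolute size in 142 events and under 0.1 in 166, with a median absolute difference of 0.0153 beside 0.0137 over all events. Levels were higher in MT in 71 events and lower in 99, with a median difference of -0.003 beside -0.002 over all events. For 105 events the 95% interval lay within 0.1 of 0 on both sides, so a change of that size was not covered by their intervals. For 18 events other than the TRIM37 event the interval reached a change as large as that of TRIM37, so their intervals covered a change of that size.

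Only the TRIM37 event, of the 171 tested, had MT levels that did not overlap the WT levels with a difference of at least 0.1. Over all genes 631 events (0.755%) did so with MT higher and 820 (0.981%) with MT lower. Among alternative 3′ splice site events 104 (1.94%) did so with MT higher. By the size of the difference, the TRIM37 event was the 35th of the 5351 alternative 3′ splice site events.

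**Figure D2:**
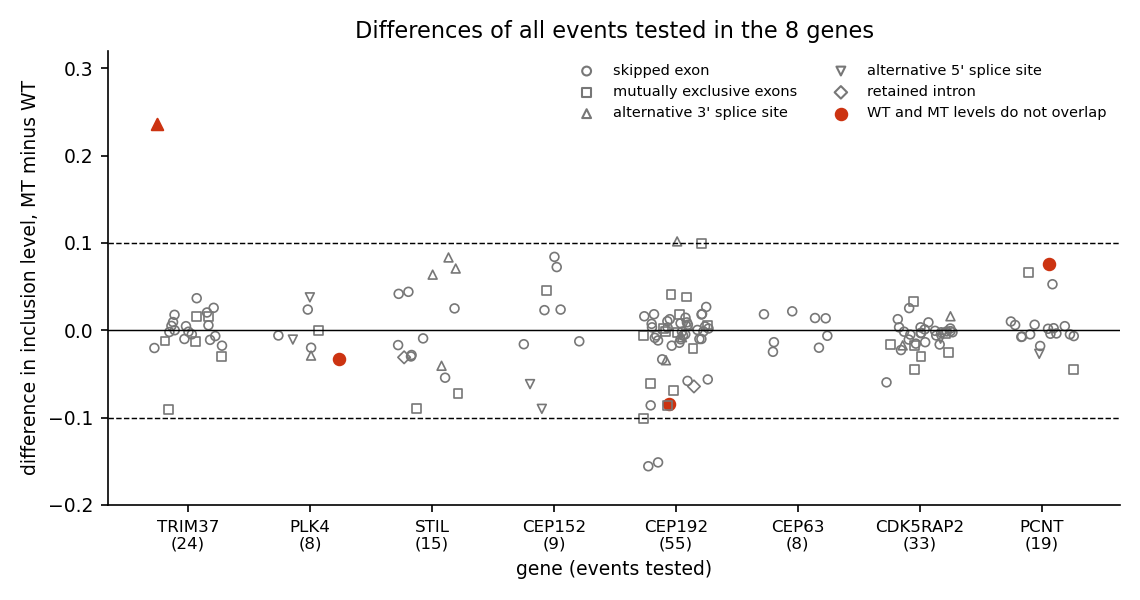
Difference in inclusion level, MT minus WT (y axis), for each of the 171 events tested, by gene (x axis, number of events in parentheses); the marker shape gives the kind of event, filled red markers have no overlap between the 3 WT and the 3 MT libraries, and dashed lines lie at 0.1 on both sides of 0. The TRIM37 alternative 3′ splice site lies at 0.237, and the lowest marker is a CEP192 exon at -0.156.

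The distance between the paired sites was also compared. The 13 alternative 3′ splice site events of the 8 genes had sites from 3 to 1497 bases apart, and only the TRIM37 pair lay 10 to 30 bases apart. Over all genes, 997 tested events had sites 10 to 30 bases apart, and 50 of them (5.02%) were higher in MT by at least 0.1 without overlap and 14 (1.4%) lower. With other distances the counts were 54 of 4354 (1.24%) higher and 71 (1.63%) lower. Where the WT mean was also under 0.1, as for TRIM37, 20 of 431 events (4.64%) with sites 10 to 30 bases apart were higher in MT by at least 0.1 without overlap. Of the others, 5 of 708 (0.706%) were. A WT mean under 0.1 leaves no room for a fall of 0.1, so only rises could be counted there. The TRIM37 event is itself among the 50 and the 20, so these shares are not independent of it. The range of 10 to 30 bases was chosen with results of these data known.

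The other 12 alternative 3′ splice site events lay in STIL, CEP192, CDK5RAP2 and PLK4, and 11 of them were tested. Their differences ran from -0.0407 to 0.102, and WT and MT levels overlapped in all 11. The PLK4 event, with sites 4 bases apart at exon 3, was read at levels of 0.942, 0.980 and 0.968 in the WT libraries and 0.948, 0.868 and 0.987 in the MT libraries. WT and MT levels overlapped, and the difference was -0.029 (95% interval -0.111 to 0.0529).

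In STIL, 3 neighbouring sites at exon 15 gave 3 events that share reads. The best covered of them, with sites 51 bases apart, had levels of 0.588, 0.793 and 0.695 in the WT libraries and 0.757, 0.752 and 0.758 in the MT libraries. The MT libraries fell within the range of the WT libraries, and the difference was 0.0637 (95% interval -0.0671 to 0.194). In CDK5RAP2, a site 80 bases upstream was used at levels of 0.034, 0.008 and 0.035 in the WT libraries and 0.069, 0.030 and 0.026 in the MT libraries. That level was low in both genotypes, with a difference of 0.016 (95% interval -0.0213 to 0.0533). Before its AG, 6 of 18 bases were pyrimidines, the fewest of any site among these events.

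CEP192 held the highest difference among the other alternative 3′ splice sites, at a pair of sites 3 bases apart. Levels were 0.575, 0.475 and 0.456 in the WT libraries and 0.495, 0.688 and 0.628 in the MT libraries. The lowest MT library lay among the WT libraries, the mean reads numbered 22.9, and the difference of 0.102 had a 95% interval from -0.0530 to 0.256. The best covered event of this kind in CEP192, with sites 145 bases apart, was at 1.000 in all WT libraries and at 0.976, 1.000 and 1.000 in MT. Another CEP192 pair, 4 bases apart, had an upstream site that ended in TG instead of AG, and its level was 0.057, 0 and 0.046 in WT and 0 in all MT libraries. The CEP192 pairs 3 and 4 bases apart were named after their values were seen. The upstream sites of the CDK5RAP2, CEP192 and STIL events just described are shown to be set beside that of TRIM37.

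CDK5RAP2 upstream site, 80 bases: tttgcattaaaaaaaaaaAGaca
CEP192 upstream site, 3 bases: ttttacacctattcccaaAGcag
STIL upstream site, 51 bases: ttatatatccttcccagcAGctc

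**Figure D3:**
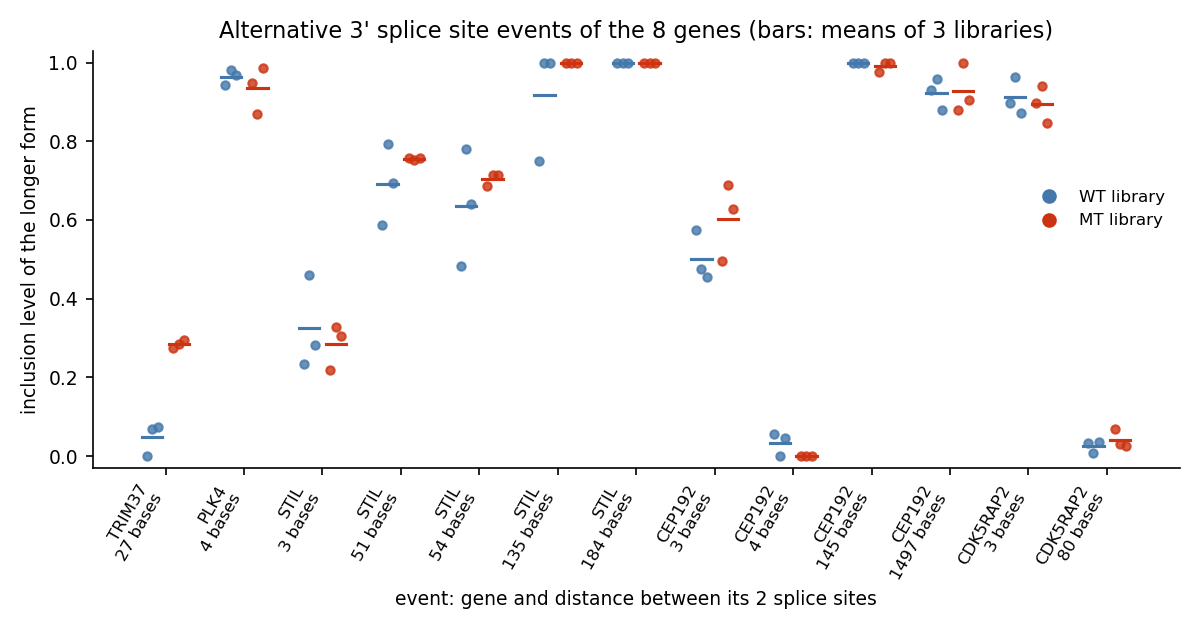
Inclusion level of the longer form (y axis) in each WT library (blue) and MT library (red) for the 13 alternative 3′ splice site events of the 8 genes (x axis, with the distance between the paired sites in bases); horizontal bars are means of 3 libraries. The MT points lie apart from the WT points at the TRIM37 event, at 0.275 to 0.294 against 0 to 0.075, and in none of the other 12.

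Within TRIM37, the remaining 23 tested events differed by -0.091 to 0.0367, and their lowest adjusted p (limma) was 0.856. Skipping of exon 23 itself did not set the genotypes apart. The short exon 23 was included at levels of 0.917, 0.967 and 0.931 in the WT libraries and 0.952, 0.892 and 0.951 in the MT libraries, a difference of -0.00667 (95% interval -0.0623 to 0.0489). Levels for the long exon 23 of 144 bases were 0.857, 0.936 and 0.867 in the WT libraries and 0.935, 0.850 and 0.936 in the MT libraries, a difference of 0.0203 (95% interval -0.0641 to 0.105). These 2 events count exon 23 against its skipping and share their skipping reads, so they do not measure the choice between the 3′ splice sites.

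The best covered TRIM37 event, exon 5 with a mean of 178 reads, was included at 0.974, 1.000 and 1.000 in WT and 0.984, 0.976 and 0.984 in MT. The lowest difference in TRIM37 was in a mutually exclusive pair of exons 4 and 5, in which the level is that of the form with the exon nearer the start of the gene. It was 0.511, 0.474 and 0.399 in the WT libraries and 0.340, 0.447 and 0.324 in the MT libraries. The groups overlapped, and the difference was -0.091 (95% interval -0.203 to 0.0206). As a skipped exon, exon 4 was at 1.000 in all libraries, and exon 5 was at 0.974 or more. The level of the pair thus does not show exon 4 and exon 5 replacing each other. This pair and the skipping events of exon 23 were named after their values were seen.

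**Figure D4:**
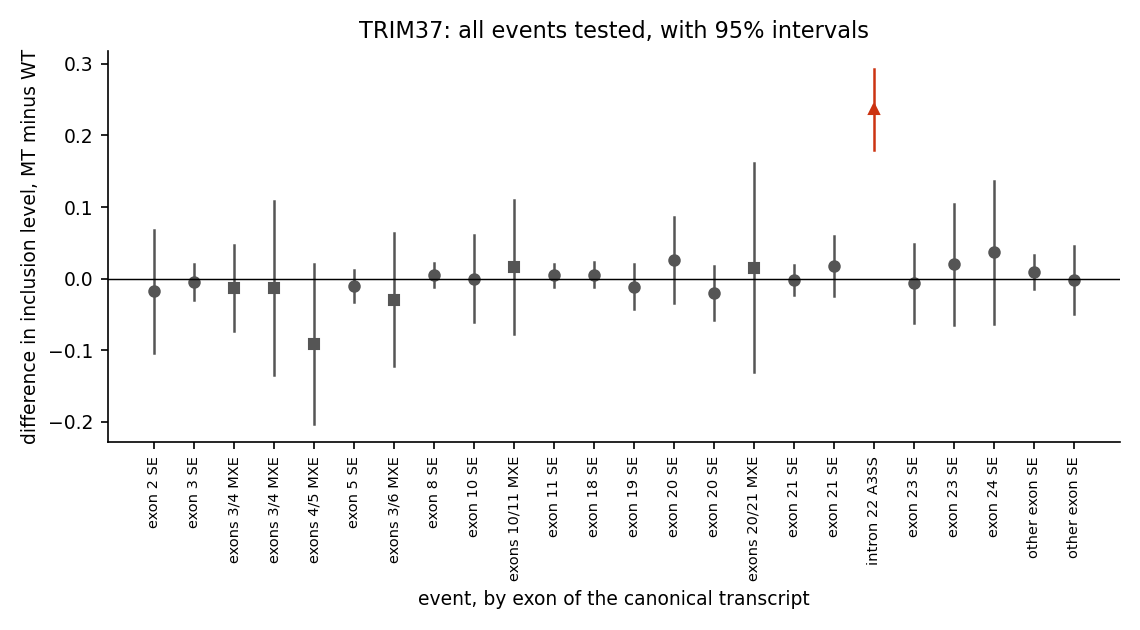
Difference in inclusion level, MT minus WT, with its 95% interval (y axis) for the 24 tested TRIM37 events, ordered by exon of the canonical transcript (x axis; SE, skipped exon; MXE, mutually exclusive exons; A3SS, alternative 3′ splice site). The interval of the alternative 3′ splice site in intron 22 runs from 0.180 to 0.294, and the intervals of the other 23 events include 0.

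PLK4 had 8 tested events with differences from -0.0333 to 0.0377. Its best covered event, an alternative 5′ splice site that keeps 102 bases of exon 5, was at 0.937, 0.848 and 0.892 in WT and 0.871, 0.965 and 0.954 in MT. Exon 9 (chr4:127891579-127891681, 103 bases), named after its values were seen, was included at 1.000, 1.000 and 0.962 in WT and 0.960, 0.957 and 0.945 in MT. The MT libraries all lay below the WT libraries, though by 0.002 at the nearest pair. Skipping reads numbered 0 of 65, 0 of 69 and 2 of 104 in the WT libraries. They numbered 2 of 99, 1 of 45 and 2 of 71 in the MT libraries, so the separation rests on very few reads. The difference was -0.0333 (95% interval -0.0675 to 0.000812; limma adjusted p = 0.856, unadjusted 0.0425).

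STIL had 15 tested events, from -0.0897 to 0.0833, and 0 of them passed an unadjusted p of 0.05. Another 7 STIL events were at 1.000 in all libraries. The best covered, a mutually exclusive pair of exons 5 and 6, had levels of 0.679, 0.726 and 0.731 in the WT libraries and 0.527, 0.699 and 0.641 in the MT libraries. MT libraries spread more widely and overlapped the WT range, with a difference of -0.0897 (95% interval -0.207 to 0.0277). In skipped exon events, exons 5 and 6 had mean levels from 0.946 to 1.000 in both genotypes. The level of the pair thus does not show these exons replacing each other.

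CEP152, 1 of the 2 scaffolds that recruit PLK4, had 9 tested events. They differed by -0.09 to 0.084, with a median half-width of the 95% interval of 0.205, the widest of the 8 genes. Exon 5, the best covered with a mean of 65.3 reads, was included at 0.977, 0.953 and 1.000 in WT and 1.000, 1.000 and 0.882 in MT. Neither genotype was set apart there.

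CEP192, the other scaffold, had the most events, with 55 tested, and also the lowest difference of the 8 genes. Exon 12 (chr18:13037237-13037301, 65 bases, coding) and exon 13 (chr18:13038370-13038579, 210 bases, coding) were read in several events that differ in their flanking exons. Exon 12 was included at 0.796, 1.000 and 0.885 in WT and 0.862, 0.726 and 0.639 in MT in 1 event (difference -0.151, 95% interval -0.346 to 0.0432, unadjusted limma value 0.0334). In another event of exon 12 the levels were 1.000, 0.931 and 1.000 in the WT libraries and 0.927, 0.841 and 0.909 in the MT libraries (difference -0.0847, 95% interval -0.169 to -0.000521, unadjusted limma value 0.0357). The groups overlapped in the first of these and did not in the second, and the adjusted p was 0.856 in both. In the second, skipping reads numbered 0 of 47, 1 of 24 and 0 of 25 in the WT libraries. They numbered 2 of 45, 1 of 10 and 1 of 18 in the MT libraries, so the separation rests on very few reads. In the remaining event of exon 12, the best covered of them with a mean of 52.6 reads, the groups overlapped and the difference was -0.0177.

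Exon 13 of CEP192, in an event that shares its skipping reads with the first exon 12 event, was included at 0.704, 1.000 and 0.826 in WT and 0.722, 0.778 and 0.563 in MT. The mean difference was the lowest of all member events, at -0.156, but the levels overlapped and the 95% interval ran from -0.394 to 0.0825 at a mean of 26.6 reads. Other events of the same exon 13 differed less, by -0.0563 at a mean of 50.8 reads and by -0.006 at 25 reads, both with overlap. The mutually exclusive pair of exons 12 and 13 was at 0.622, 0.780 and 0.617 in WT and 0.706, 0.431 and 0.579 in MT, also with overlap (difference -0.101). Another such pair, exons 2 and 3, had levels of 0.111, 0.059 and 0.159 in the WT libraries and 0.063, 0.011 and 0.048 in the MT libraries (difference -0.069, limma adjusted p = 0.856, unadjusted 0.0317), again with overlap. In skipped exon events, exon 2 had a mean of 0.993 in both genotypes, and exon 3 had means of 0.998 (WT) and 1.000 (MT). Exons 12 and 13 were also each mostly included in the skipped exon events above. The levels of these pairs thus do not show their exons replacing each other. These events of exons 12 and 13 and of exons 2 and 3 were named after their values were seen. By reads, the best covered CEP192 event was exon 8, with a mean of 225 reads, at 1.000 in all libraries but 1 MT library at 0.986.

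CEP63, which binds CEP152, had 8 tested events, all skipped exons, with differences from -0.0247 to 0.0217. Exon 5 was included at 1.000 in all libraries but 1 MT library at 0.940. Exon 9 of CEP63, used at intermediate levels, was included at 0.222, 0.414 and 0.159 in WT and 0.243, 0.296 and 0.182 in MT. Its MT libraries lay within the WT range, and the exon was named after its values were seen.

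CDK5RAP2 had 33 tested events with differences from -0.0597 to 0.0333, and 0 passed an unadjusted p of 0.05. Of its events, 24 were lower and 9 higher in MT, with a median difference of -0.00333. The best covered of all member events was exon 8 of CDK5RAP2, with a mean of 388 reads, at 0.969, 0.986 and 0.972 in WT and 0.938, 0.972 and 0.971 in MT. These levels overlapped, and the difference was -0.0153 (95% interval -0.0429 to 0.0122).

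PCNT had the lowest p of the member events after TRIM37, at exon 33 (chr21:46425831-46425971, 141 bases, coding). This exon was named after its values were seen. It was included at 0.887, 0.936 and 0.903 in WT and 1.000, 0.971 and 0.983 in MT. All MT libraries lay above all WT libraries, with a mean of 163 reads. Skipping reads numbered 7 of 117, 8 of 243 and 6 of 118 in the WT libraries. They numbered 0 of 81, 4 of 275 and 2 of 228 in the MT libraries, so the separation rests on few skipping reads. The difference was 0.076 (95% interval 0.0381 to 0.114; unadjusted limma value 0.000696), but the adjusted p was 0.427 and the size was under 0.1. The other 18 tested PCNT events ran from -0.045 to 0.0663, and the best covered, exon 9 with a mean of 271 reads, was at 0.984, 0.992 and 1.000 in WT and 1.000, 0.984 and 0.978 in MT.

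Most exons of the 8 genes were included in nearly all transcripts in both genotypes. Of 134 skipped exon events, the mean level was at least 0.9 in 114 in WT and in 115 in MT.

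A further 70 genes of centriole assembly, PLK4 turnover, the pericentriolar material and the centriole's appendages and linker were examined, of which 69 had tested events. limma called 0 of their 798 events, and 37 passed an unadjusted p of 0.05, near the background of 4.47%. Without overlap and by at least 0.1, 7 of the 798 events were higher and 9 lower in MT, near the shares over all genes (0.755% and 0.981%). The median difference was -0.003. CEP295, which stabilizes new centrioles, had the largest of the differences named, in a mutually exclusive pair at 0.485, 0.323 and 0.340 in WT and 0.294, 0.100 and 0.143 in MT (difference -0.204, 95% interval -0.376 to -0.031, adjusted p = 0.856). CEP164, a protein of the distal appendages, had mean levels of 0.493 ± 0.111 (WT) and 0.669 ± 0.0563 (MT) in such a pair (SD, n = 3 each), which did not pass the test. Whether the exons of the CEP295 and CEP164 pairs replace each other was not tested. Levels of single events in HAUS4, WDR62 and POC1B differed by -0.103, -0.122 and -0.103, with adjusted p-values from 0.492 to 0.856.

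The 6 libraries did not fall apart by genotype over all events. Over 56183 events with at least 50 reads, the mean absolute difference in level was 0.0276 to 0.0297 between WT libraries, 0.0292 to 0.0356 between MT libraries and 0.0255 to 0.0339 between a WT and an MT library. The closest pairs joined the first libraries of both genotypes (0.0262) and the second (0.0255). The part of this likeness in the member events was not tested.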

How the data were processed

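Total RNA of HEK293T SF3B1-WT (n = 3) and SF3B1-MT (n = 3) cells was sequenced, and per the labels the processing named STAR, StringTie and GRCh38. The authors computed the inclusion level of each event with the rMATS model and deposited it as a fraction with 3 decimals. The deposited table also holds mean junction reads per group and the authors' own p-values and differences, which were not used. It lists 6 MT values per event, of which the 1st, 2nd and 6th have columns of their own. These 3 columns were taken as the MT libraries, and which MT sample each one is remains unsettled. The MT means of reads cover all 6.

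Of 114349 events, 104650 had levels for every library, 94005 of these also had at least 10 reads, and 10424 constant events were dropped. Levels were compared with limma 3.58.1 under R 4.3.3 on arcsine-transformed square roots, with a variance trend on log2 mean reads, without a replicate block. Events with a Benjamini-Hochberg adjusted p under 0.05 and a difference above 0.1 were called. The 95% intervals come from the same fit on untransformed levels, so an interval and a p can disagree near the threshold. The fit was also run on simulated levels with known changes and a fixed spread between libraries. That run checked the sign and the median error of those changes and set no limit on false calls.

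Listed junction reads gave all 6 levels within 0.002 in 148 of 188 member events, with 9800 to 11437 reads per library, and reads of single libraries are quoted only from these. Mean reads of an event are the average of the authors' deposited group means. Some other lists are run together, so no count test was run. Same-numbered columns were not paired: their deviations correlated by 0.0997, 0.0974 and 0.0271. Depth of the whole libraries is unknown from this table.

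In each gene, named events were those called, those without overlap and a difference of at least 0.1, the best covered event and the best covered alternative 3′ splice site. Events named outside this rule are given as named after their values were seen. In the other centriole genes, they were those called and the 5 largest differences without overlap at 50 reads or more. Members, gene lists and tests were chosen with earlier results of these data known. Alternatives were a logit, untransformed levels, no trend, other read filters, constant events kept, a replicate block and leaving out each library. DRIP-seq peak lists were not used here. Sequences come from the hg38 genome with GENCODE release 44, and primers from the study's primer list.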

Additional observations from a re-analysis of the deposited data

How the results depend on the processing

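The TRIM37 event was not called under any of the 13 alternatives. Its direction could not change in them, since the difference was always taken from raw levels and every MT level lay above every WT level. Its adjusted p ran from 0.0783 to 0.894. With a logit it was 0.763, with untransformed levels 0.370, and with constant events kept 0.662. Leaving out 1 library gave differences from 0.213 to 0.250 with adjusted p from 0.409 to 0.894. Member events called, and events called in the other centriole genes, stayed at 0 under all 13. Members passing an unadjusted p of 0.05 numbered from 2 to 10. The differences of 9 single member events kept their direction and stayed uncalled in all 117 recomputed values. Only leaving out a library could change these differences, since the other alternatives return the same difference of raw levels. The count of calls over all genes moved: 0 with the logit, 0 with untransformed levels, 0 without the variance trend, and 3 to 13 without 1 library, where the fewest, 3, were left without the first MT column. Leaving out 1 library raised the count of member events without overlap and a difference of at least 0.1 from 1 to between 2 and 9. Fewer libraries are separated more easily. The TRIM37 event had to stay among them, since leaving out a library cannot make separate groups overlap, so its presence is no further support. With a minimum of 20 reads or a difference of at least 0.2 the count of such events stayed at 1. A replicate block on the column number, which nothing in the labels ties to shared cultures, gave 12 calls over all genes, 0 in members, and an adjusted p of 0.345 for TRIM37. Each column correlated best with its own number. The median half-width of the 95% interval over the member events was 0.0490. It describes single intervals on untransformed levels and not the size of difference that the adjusted test could call. Even the TRIM37 difference of 0.237 was not called.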
